A study of Mus musculus and Sus scrofa with 30 samples.

Results

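This account covers 10 protein-coding genes of the mitochondrial genome in 2 adipogenic cell systems, mouse 3T3-L1 and porcine dedifferentiated fat (DFAT) cells. The genes are mt-Nd1, mt-Nd2, mt-Nd4, mt-Nd5 and mt-Nd6 of complex I, mt-Cytb of complex III, mt-Co1, mt-Co2 and mt-Co3 of complex IV, and mt-Atp6 of the ATP synthase. They were chosen by gene name and by position on chromosome M. That rule sets no threshold on a measured value. The genes were nevertheless proposed with earlier results of these data in view, among them the share of each library taken by mitochondrial genes, so that share is described here without a test. The values of these genes make up that share, so the calls of single genes below are not independent of that choice. They are 10 of 13 protein-coding genes on chromosome M and 10 of 24843 genes listed for 3T3-L1, and likewise 10 of 13 and 10 of 34307 for DFAT. In each system all 10 passed the filter for testing, a mean normalized count of at least 10 over the 15 libraries. The other 3 protein-coding genes of chromosome M, mt-Nd3, mt-Nd4l and mt-Atp8, are given beside them.

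3T3-L1 is an established mouse preadipocyte line. DFAT cells are fibroblast-like cells obtained by dedifferentiating mature fat cells, here from subcutaneous pig fat. Each system had 5 groups of 3 libraries taken on day 5 of adipogenic induction: vehicle (DMSO), dicoumarol, magnolol, dicoumarol plus magnolol, and rosiglitazone. Every group of a system, vehicle included, received the same inducers. For 3T3-L1 these were dexamethasone (75 nM), insulin (0.75 µg/mL) and the phosphodiesterase inhibitor IBMX (37.5 µM), with serum at 10%. For DFAT they included dexamethasone (0.5 µM) and IBMX (12.5 µM), with serum at 2%. Rosiglitazone is an agonist of the adipogenic nuclear receptor PPARγ, dicoumarol is a vitamin K antagonist that also inhibits the quinone reductase NQO1, and magnolol is a biphenol from magnolia bark. Their doses are not stated in the labels. Nothing in the labels says that the 3 libraries of a group came from separate cultures or animals, so p-values measure only the spread between these libraries, which may be technical.

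The mitochondrial genome is a small circular DNA present in many copies per cell. Its genes encode core subunits of the respiratory chain complexes and of the ATP synthase, and all other subunits come from nuclear genes and are imported. Both strands are transcribed by the mitochondrial RNA polymerase POLRMT into long precursors that are cut, mostly at the interspersed tRNAs, into separate messenger RNAs, most of which then receive a poly(A) tail. Levels of the messengers therefore depend on genome copy number, on transcription of the precursor and on the stability of each messenger. White fat cells gain mitochondria while they differentiate.

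The deposited mouse coordinates of all 15 genes on chromosome M matched GENCODE M21 (GRCm38), which allowed the ends of the mouse genes to be read from that annotation's transcripts. The libraries were made from enriched mRNA, and the genes differ in how their reading frames close. A relation of these ends to the measured levels was not tested. mt-Nd4 (M, 10167 to 11544), mt-Co3 (M, 8607 to 9390) and mt-Cytb (M, 14145 to 15288) have a length 1 base over whole codons and end in a lone T, an incomplete stop codon that the poly(A) tail completes. The last 24 bases of these and of 3 genes with complete stop codons are shown 5′ to 3′, with the bases of the stop codon in capitals.
mt-Nd4: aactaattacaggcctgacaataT
mt-Co3: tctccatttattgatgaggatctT
mt-Cytb: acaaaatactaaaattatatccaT
mt-Nd1: gcgggagtaccaccatacataTAG
mt-Nd5: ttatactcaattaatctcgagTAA
mt-Nd6: attatcgagattactcgagatTAA
mt-Nd5 (M, 11742 to 13565, plus strand) and mt-Nd6 (M, 13552 to 14070, minus strand) run toward each other and share their last 14 bases, which read as follows on the plus strand.
mt-Nd5 and mt-Nd6 overlap: TTAATCTCGAGTAA
mt-Nd6 is the one member on the minus strand. The labels describe strand marking with dUTP, but the strand setting of the counting is not given in the sources used here. Reads of mt-Nd5 and mt-Nd6 from this overlap therefore cannot be told apart. If strand was ignored, opposite-strand reads anywhere along mt-Nd6 (519 bases) would also be counted as mt-Nd6, which was not tested. In pig the same pair overlaps by the deposited coordinates (ND5 on M, 12935 to 14755, and ND6 on M, 14739 to 15266), whose pig build is not stated. On the same strand in mouse, mt-Atp6 shares 43 bases with mt-Atp8 and 1 base with mt-Co3, and mt-Nd4 shares 7 bases with mt-Nd4l.

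Depth, estimated from the step between low values, was 22.8 to 30.7 M reads (M here for mega) per 3T3-L1 library, and DFAT libraries were deeper, at 44.8 to 70.5 M. All 8 adipocyte markers were detected and tested in both systems. Markers of other cell types were low, with summed values of 0 to 2.83 for epithelial and 4.42 to 18.0 for endothelial genes in 3T3-L1, and 0 to 7.13 for epithelial genes in DFAT. In DFAT the endothelial sum was 149 to 236, nearly all of it PECAM1, with 1 or 2 of 3 genes at 0 in each group. The immune markers had sums of 18.5 to 69.2 in the mouse libraries and 47.9 to 95.3 in those of pig, nearly all of it from the gene for CD68. The muscle markers had sums of 48.5 to 114 in 3T3-L1, all of it Des, and 22.0 to 155 in DFAT, nearly all of it DES. The 10 mitochondrial genes alone took between 4.86% and 13.2% of all normalized counts in a 3T3-L1 library and between 4.42% and 9.17% in a DFAT library.

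mt-Co1, the catalytic core of cytochrome c oxidase, had the highest level of the 10 per unit length. In vehicle-treated 3T3-L1 cells it stood at 281499 ± 46026 normalized counts per kb (SD, n = 3), followed by mt-Cytb at 171704 ± 35402 and mt-Atp6 at 157616 ± 23087. mt-Nd2 was lowest at 84438 ± 11560 per kb, next to mt-Nd5 at 95057 ± 8915, a gap smaller than the SD of mt-Nd2. The full order after mt-Co1 was mt-Cytb, mt-Atp6, mt-Co3, mt-Nd1, mt-Co2, mt-Nd6, mt-Nd4, mt-Nd5 and mt-Nd2. The gap from mt-Co1 to mt-Cytb and that from mt-Nd1 (141015 ± 20065) to mt-Co2 (115101 ± 19642) exceeded the SDs of the genes on either side, and every other gap between neighbours was below the larger of their SDs. In DFAT, COX1 was again highest with 870455 ± 56080 per kb, followed by COX3 with 564931 ± 25417, ND5 with 302760 ± 31010, ATP6 with 289793 ± 10543 and ND6 with 273049 ± 40173. ND1 was lowest at 57539 ± 4130. The gaps from COX1 to COX3 and from COX3 to ND5 exceeded the SDs, whereas neighbours among ND5, ATP6 and ND6 differed by less than the larger of their SDs. COX2 (203731 ± 4459) and ND4 (196609 ± 13214) followed, and then ND2 (116165 ± 4606) beside CYTB (115121 ± 2358), which also differed by less than their spread.

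Reads of several mouse members may be shared with nuclear copies, which was not tested. A search of the transcripts of 24055 listed nuclear genes found 9 that matched a member over at least 100 bases at 95% identity or more. The pseudogenes Gm10925, Gm28661 and Gm28437, all on chromosome 1, were 100% identical to mt-Atp6 over 678 bases, to mt-Co2 over 681 bases and to mt-Co3 over 783 bases. Their mean values were 97.1%, 120.0% and 80.3% of those of the members. The values of mt-Atp6, mt-Co2 and mt-Co3 in mouse are therefore uncertain, since the counting could split identical sequence between the rows. With the copies added, vehicle levels per kb were 307444 ± 39705 for mt-Atp6, 267600 ± 37546 for mt-Co2 and 258232 ± 38651 for mt-Co3, against 293139 ± 47616 for mt-Co1, so that neighbours in the order of these 4 differed by less than their SDs. Among the other members, copies made up at most 6.89% of the summed value in any library, in mt-Nd4, and no such copy was found for mt-Nd1, mt-Nd6 or mt-Cytb. Gm28439 was 100% identical to mt-Nd4 over 876 bases, and Gm29216 was 99.8% identical to mt-Co1 over 483 bases. Reads of these stretches could be split in the same way. No pig sequence was used, so copies in DFAT were not examined.

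**Figure D1:**
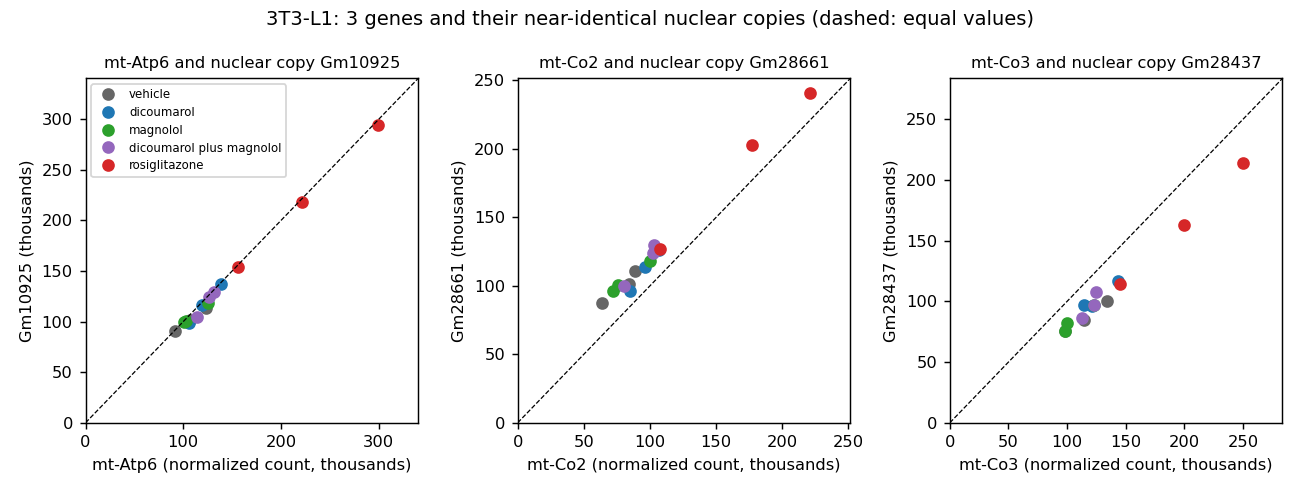
Normalized counts, divided as the axes state, of 3 mitochondrial genes (horizontal axis) and of their near-identical nuclear copies (vertical axis) in the 15 libraries of 3T3-L1, coloured by treatment. The copies rise and fall with the genes they match, with mean values at 97.1%, 120.0% and 80.3% of those of mt-Atp6, mt-Co2 and mt-Co3.

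Rosiglitazone raised all 10 genes in 3T3-L1 cells. Their log2 fold changes against vehicle ran from 0.56 for mt-Nd5 to 1.31 for mt-Nd1, with a median of 0.88, or 1.85-fold, beside a median of 0.00 over all genes tested. By limma on log2(normalized count + 1), with Benjamini-Hochberg adjustment over 15723 genes and a threshold of 0.05, adjusted p-values were 0.000223 to 0.0243. In that comparison 20.3% of all tested genes were called higher. For 10 of 10 genes every rosiglitazone library lay above every vehicle library, as was so for 23.5% of all genes.

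mt-Nd1, a membrane subunit of complex I near the quinone site, gave 141477, 113337 and 150041 normalized counts in the vehicle libraries and 457562, 227462 and 349033 in the rosiglitazone libraries. The lowest rosiglitazone library, replicate 2, was still above the highest vehicle library. The change was 1.31 on the log2 scale (SE 0.22; limma adjusted p = 0.000223), the largest of the 10.

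mt-Nd2, a second membrane subunit of complex I, gave 87807, 75569 and 99565 with vehicle and 236690, 124546 and 201524 with rosiglitazone. Again the groups did not overlap and replicate 2 was the lowest rosiglitazone library. The log2 fold change was 1.06 (SE 0.20; limma adjusted p = 0.000681).

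mt-Co2, which carries the site where cytochrome c oxidase receives electrons from cytochrome c, gave 83965, 63464 and 88759 with vehicle and 220658, 107541 and 177030 with rosiglitazone, without overlap. The log2 fold change was 1.05 (SE 0.22; limma adjusted p = 0.00152). Its copy Gm28661 went from 99876 ± 11911 (SD, n = 3) to 190286 ± 57853, and with all copies added to the members 10 of 10 were still called.

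The smallest changes were those of mt-Nd5, a proton-pumping subunit of complex I, and of mt-Nd6, its neighbour on the opposite strand. mt-Nd5 gave 178805, 155106 and 186243 with vehicle and 314262, 188664 and 281072 with rosiglitazone, so that replicate 2 of rosiglitazone lay just above the highest vehicle library. mt-Nd6 gave 59225, 49810 and 63514 with vehicle and 114715, 64021 and 99291 with rosiglitazone, with the same narrow separation. The log2 fold changes were 0.56 and 0.65. Between these and the largest changes lay mt-Atp6, the proton channel subunit of the ATP synthase (1.03), mt-Cytb, the cytochrome b of complex III (0.94), mt-Nd4 (0.83), mt-Co1 (0.80) and mt-Co3 (0.76).

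The 3 genes of chromosome M outside the set moved with them. mt-Nd3 rose by 1.05 (SE 0.18; limma adjusted p = 0.000235), mt-Atp8 by 0.89 and mt-Nd4l by 0.84 on the log2 scale. The mitochondrial ribosomal RNAs also rose, mt-Rnr2 by 1.02 and mt-Rnr1 by 0.94, while the abundant nuclear noncoding RNAs Malat1 (0.31), Neat1 (-0.15) and Rn7sk (-0.19) were not called.

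The 3 rosiglitazone libraries differed from each other more than those of any other 3T3-L1 group. The summed value of the 10 genes was 2.45, 1.28 and 1.97 times the vehicle mean in replicates 1, 2 and 3, and their share of the library was 13.2%, 7.14% and 10.7%. Vehicle shares were 5.92%, 4.86% and 6.55%. Without rosiglitazone replicate 1, 7 of the 10 genes were still called, and mt-Nd5 (0.41), mt-Nd6 (0.48) and mt-Co1 (0.58) were not. Leaving out vehicle replicate 2 left 8, without mt-Nd5 and mt-Co1, and leaving out rosiglitazone replicate 3 left 9, without mt-Nd5. Under quantile normalization, which ties the most abundant genes to their rank, mt-Co1 was at 0 and 7 of 10 were called.

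**Figure D2:**
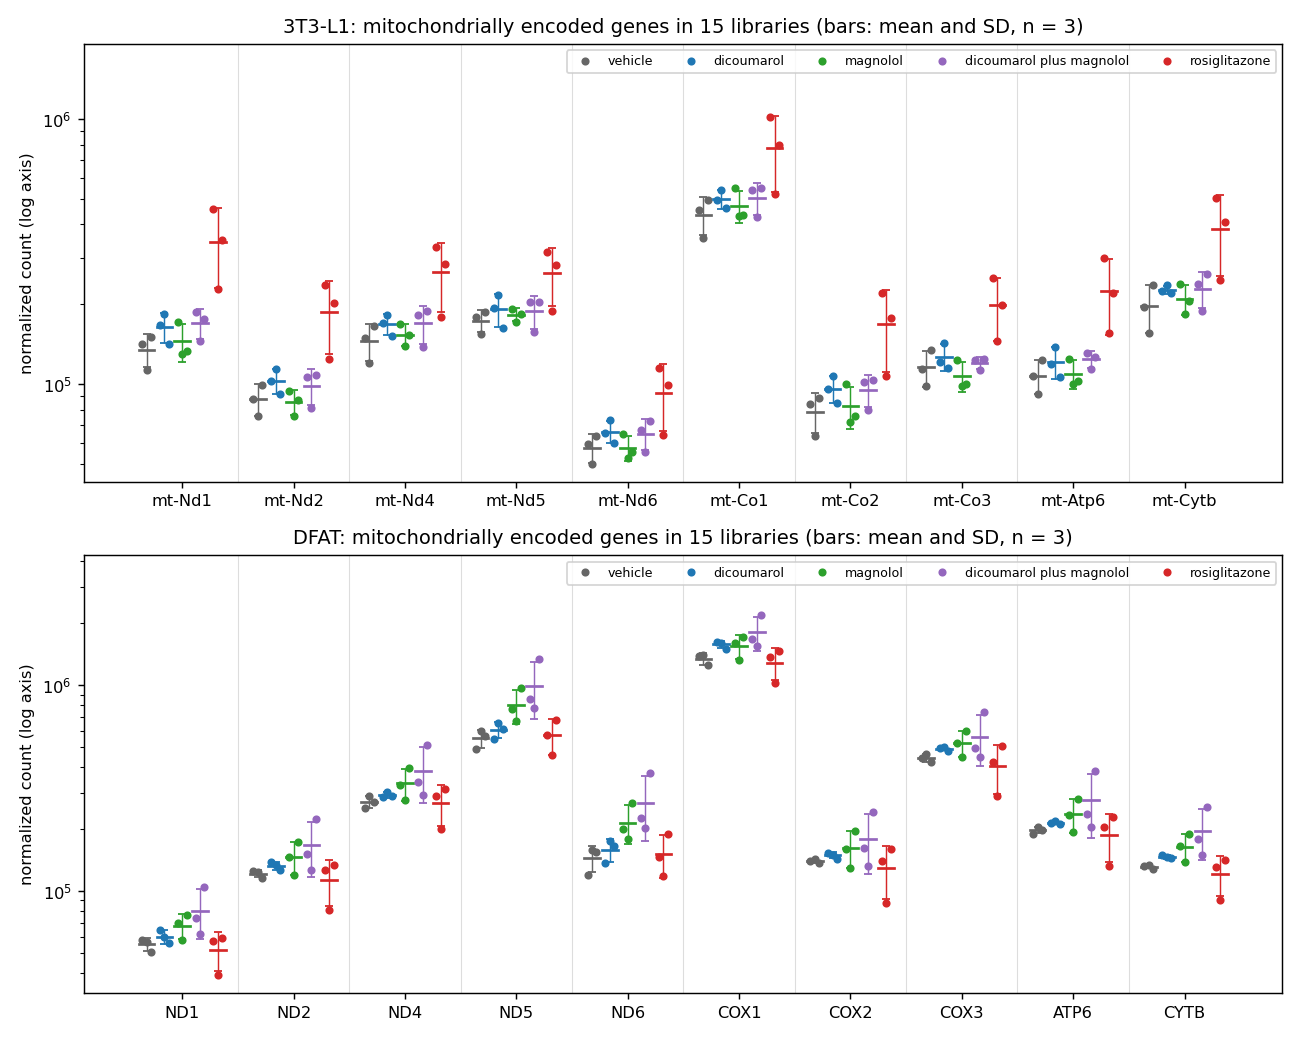
Normalized counts (log axis) of the 10 mitochondrial genes in each library, with points for libraries, horizontal bars for means and error bars for SD (n = 3), in 3T3-L1 (top) and DFAT (bottom). In 3T3-L1 the rosiglitazone libraries stand above vehicle for all 10 genes. In DFAT the highest point of each gene is replicate 3 of dicoumarol plus magnolol, and the other libraries of that group lie within the magnolol range.

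Neither of the other compounds nor their combination moved a mitochondrial gene past the threshold in 3T3-L1. With dicoumarol, all 10 fold changes were positive, from 0.14 for mt-Co3 (SE 0.18) to 0.29 for mt-Co2 (SE 0.22), and by limma 0 of 10 were called and 0 of 10 had an unadjusted p under 0.05. The 95% interval for mt-Co2 was -0.18 to 0.77, so a rise of the size seen with rosiglitazone in mt-Nd5 was not excluded. In that comparison 0% of all genes were called by limma, with 393 at an unadjusted p under 0.05. With magnolol the changes ran from -0.11 for mt-Co3 (SE 0.18) to 0.12 for mt-Co1 (SE 0.23), 0 of 10 were called or had an unadjusted p under 0.05, and the background of called genes was 1.23%. With dicoumarol plus magnolol they ran from 0.06 for mt-Co3 (SE 0.18) to 0.33 for mt-Nd1 (SE 0.22), with 0 of 10 called or at an unadjusted p under 0.05 and 5.22% of all genes called. The median of the 10 was 0.22, 0.07 and 0.22 in these 3 comparisons, which share the vehicle libraries with each other and with that of rosiglitazone.

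mt-Nd1 shows the levels behind these values. It gave 167476, 183532 and 142000 normalized counts with dicoumarol, 171366, 129373 and 133499 with magnolol, and 187626, 145112 and 175524 with both compounds. Each of these groups overlapped the vehicle range of 113337 to 150041.

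The combination was then compared with its components and with rosiglitazone. Against dicoumarol alone, the 10 changes lay between -0.07 (mt-Co3, SE 0.18) and 0.04 (mt-Nd1, SE 0.22), with 0 called by limma, 0 at an unadjusted p under 0.05 and 0.0254% of all genes called. Against magnolol alone they lay between 0.03 (mt-Nd5, SE 0.19) and 0.23 (mt-Nd1, SE 0.22), again with 0 called and 0 at an unadjusted p under 0.05. There 0% of all genes were called by limma, and 336 had an unadjusted p under 0.05.

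Rosiglitazone gave higher values than the combination for 6 of 10 genes: mt-Nd1, mt-Nd2, mt-Atp6, mt-Co2, mt-Cytb and mt-Co3. The largest differences were those of mt-Nd1 (0.98, SE 0.22; limma adjusted p = 0.00796), mt-Nd2 (0.89, SE 0.20; limma adjusted p = 0.00852) and mt-Atp6 (0.81, SE 0.20; limma adjusted p = 0.0118). The other 4 had changes of 0.45 (mt-Nd5) to 0.61 (mt-Nd4). Of all tested genes 9.53% were called higher, and the groups did not overlap for 5 of the 10 genes, as against 18.9% of all genes. Same-numbered 3T3-L1 libraries deviated together in these data, a pairing that the labels do not state. With the replicate number as a block 10 of 10 were called, with limma adjusted p-values of 0.000575 (mt-Nd1) to 0.0385 (mt-Nd5), beside 16.1% of all genes called higher with the block. The count fell to 2 without rosiglitazone replicate 1 and 3 without combination replicate 2, rose to 10 without rosiglitazone replicate 2, was 1 when only these groups entered the fit, and was 0 under quantile normalization.

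**Figure D3:**
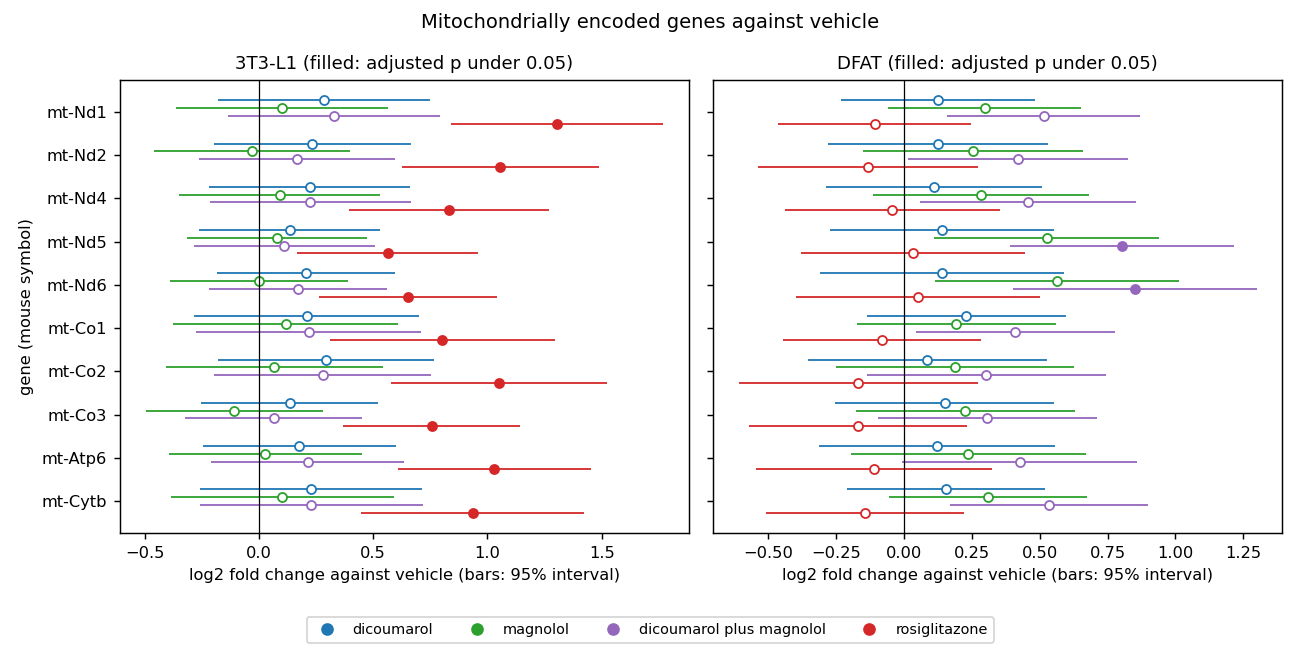
Log2 fold change against vehicle with its 95% interval for each gene and treatment, in 3T3-L1 (left) and DFAT (right); filled points have a limma adjusted p under 0.05. In 3T3-L1 the filled points are the 10 of rosiglitazone, and in DFAT they are mt-Nd5 (ND5) and mt-Nd6 (ND6) under dicoumarol plus magnolol.

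In DFAT cells the pattern over treatments was another one. Rosiglitazone did not move any of the 10 genes past the threshold, whereas dicoumarol plus magnolol raised ND5 and ND6. The systems were normalized separately and differ in species, inducers and serum, so their fold changes are set side by side without a test between them.

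With rosiglitazone, DFAT changes ran from -0.17 for COX3 (SE 0.19) to 0.05 for ND6 (SE 0.21), with a median of -0.11. By limma 0 of 10 were called and 0 of 10 had an unadjusted p under 0.05, beside 10.8% of all 14819 tested genes called. ND1 gave 57860, 56527 and 50460 normalized counts with vehicle and 57051, 39042 and 59230 with rosiglitazone, so the groups overlapped, and replicate 2 of rosiglitazone was the lowest of the 6. That library was the lowest of its group for all 10 genes, with a share of 4.42% against 6.03% and 6.57% in the other two. The 95% interval for ND1 was -0.46 to 0.25. All 8 adipocyte markers rose with rosiglitazone in DFAT as in 3T3-L1 (median log2 fold changes 3.27 and 4.88).

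With dicoumarol plus magnolol, all 10 DFAT genes had positive fold changes, from 0.30 (COX2) to 0.85 (ND6), with a median of 0.44. 2 of 10 were called higher, beside 6.11% of all genes, and for 8 of 10 the groups did not overlap, beside 14.2% of all genes. The members outside that separation were COX2 and COX3.

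ND6, a membrane subunit of complex I, gave 119713, 157540 and 155257 with vehicle and 225343, 202758 and 375302 with dicoumarol plus magnolol. All 3 treated libraries were above the vehicle range, replicate 3 by far the most. The log2 fold change was 0.85 (SE 0.21; limma adjusted p = 0.0151).

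ND5 gave 488176, 596967 and 568834 with vehicle and 856039, 770965 and 1332070 with both compounds. The groups were separate here too, with replicate 3 again highest. The log2 fold change was 0.80 (SE 0.20; limma adjusted p = 0.0128). ND5 and ND6 overlap on opposite strands, and the part of antisense reads in their values was not tested.

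The next largest changes were those of CYTB (0.53) and ND1 (0.51, limma adjusted p = 0.0640), which did not pass. COX1 gave 1381870, 1406840 and 1245850 with vehicle and 1681110, 1548350 and 2185950 with both compounds, separate groups with a log2 fold change of 0.41 that was not called. Outside the set, ND4L (0.48), ATP8 (0.45) and ND3 (0.25) had positive changes that were not called. The longer of the 2 unnamed mitochondrial rRNA rows (M, 2274 to 3844) rose by 0.73 (SE 0.22; limma adjusted p = 0.0452), from 2690950, 1814760 and 2349360 to 3608340, 3636200 and 4007490. Here too replicate 3 was highest, though by less. The shorter rRNA row had a change of 0.62 (SE 0.23; limma adjusted p = 0.101) that was not called, with overlapping groups.

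Replicate 3 of the combination had the highest share of the 10 genes in any DFAT library, 9.17%, beside 6.86% and 6.27% in replicates 1 and 2 and 5.62%, 6.28% and 5.60% with vehicle. Without it 0 of 10 genes were called, with ND5 at 0.56 (limma adjusted p = 0.066) and ND6 at 0.58 (limma adjusted p = 0.0814). The count was also 0 without vehicle replicate 1 and 4 without combination replicate 2. Scaling each library to its total, in place of the deposited size factors, moved the median over all genes to -0.17 and the share of higher among called genes from 60.1% to 11.9%, and 2 of 10 mitochondrial genes stayed called. With no filter on low values, and under quantile normalization, 0 of 10 were called, with limma adjusted p-values of 0.0713 and 0.191 for ND5 and 0.0688 and 0.0511 for ND6.

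Dicoumarol and magnolol alone called 0 of 10 genes in DFAT. With dicoumarol the changes ran from 0.09 for COX2 (SE 0.21) to 0.23 for COX1 (SE 0.17), with 0 of 10 at an unadjusted p under 0.05 by limma, beside 1.94% of all genes called. For 6 of 10 genes the groups did not overlap, beside 9.8% of all genes. The members move together across libraries and share each library's size factor, so these 6 are not separate observations. CYTB, for example, gave 131737, 133641 and 128335 with vehicle and 149502, 145322 and 143931 with dicoumarol.

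With magnolol the changes ran from 0.19 for COX2 (SE 0.21) to 0.56 for ND6 (SE 0.21). By limma 2 of 10, ND5 and ND6, had an unadjusted p under 0.05, and ND6 had an adjusted p of 0.170. Of all 14819 tested genes 2476 had an unadjusted p under 0.05, and 4.22% were called. For ND5, ND6 and CYTB the groups did not overlap, as for 10.9% of all genes. ND6 gave 200101, 177725 and 266113 with magnolol, above the vehicle range and overlapping that of both compounds. Both compounds against dicoumarol gave changes of 0.16 (COX3, SE 0.19) to 0.71 (ND6, SE 0.21), with 0 called, beside 2.35% of all genes. By limma 4 of 10 had an unadjusted p under 0.05, beside 1882 of all 14819 genes. Both against magnolol gave 0.08 (COX3, SE 0.19) to 0.29 (ND6, SE 0.21), with 0 called, 0 at an unadjusted p under 0.05 and 0.621% of all genes called.

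Rosiglitazone and the combination differed in DFAT in the direction opposite to that in 3T3-L1. With rosiglitazone 4 of 10 genes were lower: ND6 (-0.80, SE 0.21; limma adjusted p = 0.0151), ND5 (-0.77, SE 0.20; limma adjusted p = 0.0114), CYTB (-0.68, SE 0.17; limma adjusted p = 0.0113) and ND1. The other 6 lay between -0.55 (ND2) and -0.47 (COX2). Of all genes 8.79% were called lower, and the rosiglitazone libraries were below those of the combination for 5 of the 10 genes, as for 14.6% of all genes. With the replicate number as a block, fitted over all 15 DFAT libraries, 10 of 10 were called, beside 12.6% of all genes called lower. Limma adjusted p-values with the block were 0.000822 (ND6) to 0.0357 (COX2). Same-numbered libraries of these groups deviated together (lowest correlation 0.105), but over all DFAT groups only 16 of 30 such correlations were over 0.1. The blocked count is therefore an alternative and not the result of an established pairing. The count was 0 without combination replicate 3, 0 without rosiglitazone replicate 2, 7 without combination replicate 2, 7 without rosiglitazone replicate 3 and 0 when only these groups entered the fit. Total scaling moved the share of higher among called genes from 48.4% to 88.1% and the median over all genes to 0.18. With that scaling 4 mitochondrial genes were again called, whereas with no filter and under quantile normalization 1 was, CYTB. This comparison and the one of the combination with vehicle share the combination libraries.

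The 10 genes did not keep fixed proportions. Each gene's value was divided by the sum of the 10 in its library, which cancels any scaling of the whole library, and the shares are described without a test. In 3T3-L1, mt-Nd1 made up 12.2%, 11.6% and 11.6% of the sum with rosiglitazone and 8.60% to 9.97% in the other 12 libraries. mt-Nd5 made up 8.39%, 9.63% and 9.30% with rosiglitazone and at least 10.2% elsewhere. mt-Nd6 was also lower in share there, 3.06%, 3.27% and 3.29% against at least 3.54% elsewhere. Rosiglitazone replicate 2, lowest in total, was on the same side as the other two for all 3 genes.

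In DFAT the shares of ND5 and ND6 were higher in every library with magnolol, with or without dicoumarol, than in any vehicle library. ND5 made up 18.2%, 19.0% and 19.9% with magnolol and 19.5%, 19.6% and 21.0% with both compounds, beside 14.7%, 16.7% and 17.3% with vehicle. ND6 made up 4.78%, 5.04% and 5.48% with magnolol and 5.12%, 5.15% and 5.91% with both, beside 3.60%, 4.41% and 4.72% with vehicle. With dicoumarol alone ND5 was at 14.5%, 16.6% and 16.5%, overlapping the vehicle range, and with rosiglitazone at 16.6%, 18.2% and 17.6%. ND6 made up 4.24%, 4.69% and 4.90% with rosiglitazone, so that replicate 3 lay above every vehicle library and above the lowest magnolol library. COX3 had shares of 11.3%, 11.4% and 11.6% with both compounds, below the vehicle range of 12.9% to 13.3%. Vehicle replicate 1 was the lowest vehicle library for ND5 and ND6.

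**Figure D4:**
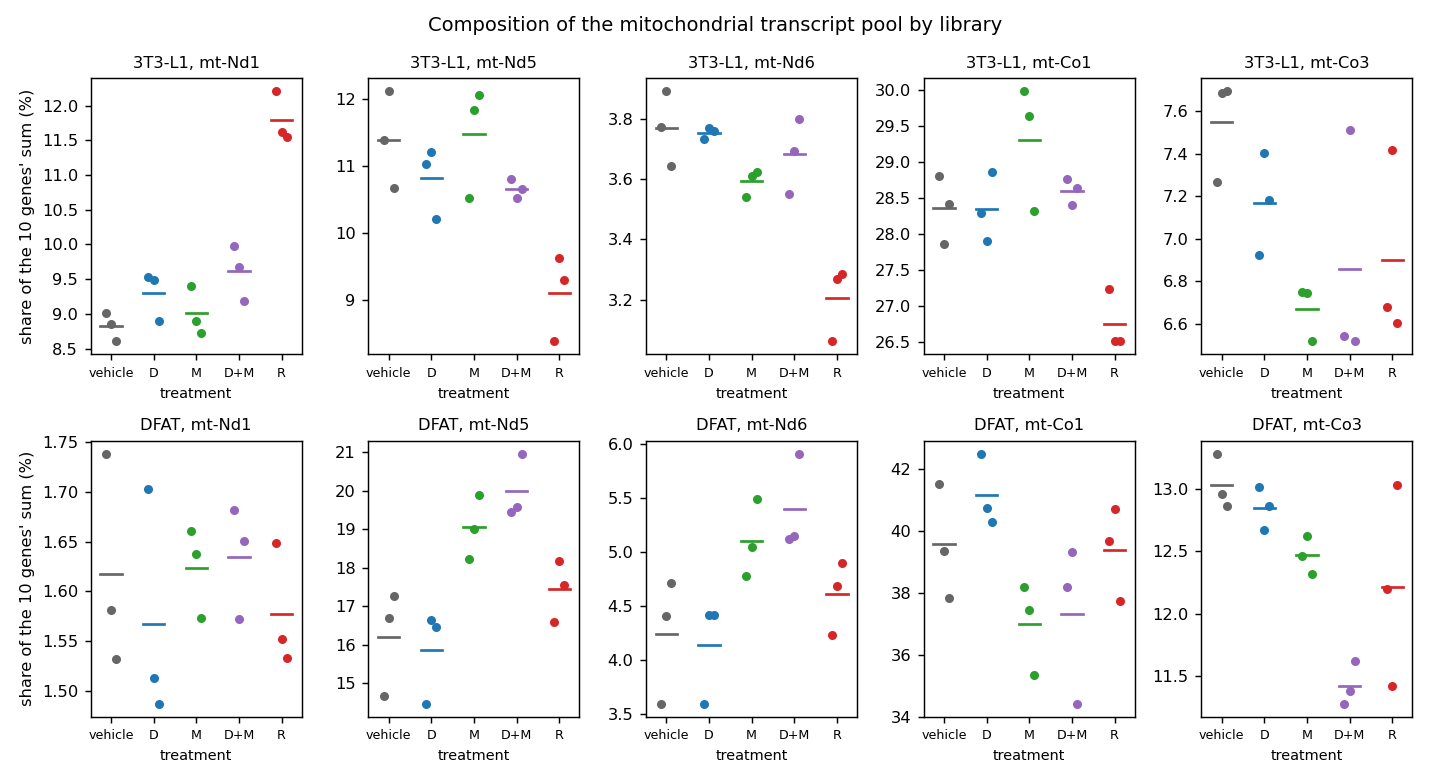
Share of 5 genes in the sum of the 10 mitochondrial genes (%, vertical axes not starting at 0) by treatment, with a point per library and a bar for the group mean (D dicoumarol, M magnolol, R rosiglitazone). mt-Nd1 stands highest and mt-Nd5 and mt-Nd6 lowest with rosiglitazone in 3T3-L1, whereas in DFAT the group means of mt-Nd5 and mt-Nd6 (ND5 and ND6) are highest with magnolol and with both compounds, with rosiglitazone overlapping magnolol for ND6.

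Across libraries the genes moved closely together. Over the 15 libraries of 3T3-L1, Pearson's r between the log2 values of 2 members was 0.923 (mt-Nd5 and mt-Co3) to 0.993 (mt-Nd1 and mt-Atp6). After group means were subtracted it was 0.891 to 0.993. In DFAT r was 0.821 (ND6 and COX2) to 0.995 (ND5 and ND6) over all 15 libraries and 0.751 to 0.997 after group means were subtracted. ND5 and ND6 are the overlapping pair on opposite strands, and had an r of 0.971 over the 3T3-L1 libraries. The part of antisense reads in that likeness was not tested. All members of a library share its size factor, and its part in these values of r was not tested.

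The genes outside chromosome M that were most like the 10 members, of 11563 with a mean of at least 100, were in 3T3-L1 all pseudogenes: Gm28661 (r = 0.994 with the members' mean log2 value over 15 libraries), Gm10925 (0.987), Gm28437 (0.985), Gm13341 (0.979) and Gm10222 (0.973). The first 4 are among the near-identical copies. In DFAT they were TSPYL2 (0.960), CPAP (0.956), MIA3 (0.947), TMEM67 (0.941) and ZFC3H1 (0.937), of 9920 genes. These values describe the libraries and carry no test.

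Nuclear-encoded subunits of the same complexes rose beside the mitochondrial ones in 3T3-L1 with rosiglitazone. Of 71 tested subunits of complexes I, III, IV and V, 70 were higher, 0 were lower and 1 did not pass, beside 20.3% of all genes called higher. Their median log2 fold change was 0.93, beside 0.88 for the 10 mitochondrial genes. All 37 of complex I were higher, led by Ndufc2 (1.48), Ndufab1 (1.20) and Ndufb6 (1.19), and all 9 of complex III, led by Uqcr11 (1.52), Uqcrfs1 (1.42), the Rieske protein, and Uqcrq (1.41). All 10 of complex IV were higher, with Cox5b at 1.23, and 14 of 15 of complex V, led by Atp5g3, a subunit of the c-ring, and followed by Atp5k at 1.25. The 4 subunits of complex II, which has no mitochondrially encoded part, were higher too, with a median of 0.80. Genes for mitochondrial DNA transcription and replication were higher for 12 of 15, with smaller changes (median 0.46), led by the transcription factor gene Tfb2m (0.70), the elongation factor gene Tefm (0.65) and Polrmt (0.58). Those for mitochondrial RNA processing and stability were higher for 18 of 20 (median 0.48), led by Tbrg4 (1.17), Elac2 (0.80), which cuts the 3′ ends of tRNAs, and Hsd17b10 (0.71), a subunit of mitochondrial RNase P.

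With dicoumarol plus magnolol in 3T3-L1, 13 of the 71 nuclear-encoded subunits were higher and 0 were lower (median 0.26), among them Cyc1, the cytochrome c1 of complex III (0.74), and Ndufc2 (0.68), while 0 of 10 mitochondrial genes were called (median 0.22). Of all genes 3.86% were called higher. With the replicate block 28 of 71 were higher, beside 8.03% of all genes, and 0 of 10 mitochondrial genes were called. Of 35 genes for mitochondrial gene expression 5 were higher, or 12 with the block. With magnolol 1 of 71 was higher, or 8 with the block (median 0.09), beside 1.07% and 3.52% of all genes, and with dicoumarol 0 of 71 by limma, or 1 with the block (median 0.15).

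In DFAT no nuclear-encoded subunit was called higher under any of the 4 treatments by limma. With dicoumarol plus magnolol 0 of 60 tested were higher and 3 were lower, NDUFA5 (-0.22), ATP5MG (-0.22) and ATP5PB (-0.21), and their median was -0.06 beside 0.44 for the mitochondrial genes. Of all genes 4.06% were called lower, so that 3 of 60 is near the background. With magnolol 0 were higher and 1 was lower (median -0.10), beside 1.27% of all genes called lower, with rosiglitazone 0 were higher and 1, NDUFS1, was lower (median -0.01), beside 5.02% of all genes, and with dicoumarol 0 were called (median -0.01). Genes for mitochondrial gene expression gave 0 calls of 35 with each of the 4 treatments by limma, with medians of -0.09 to -0.03. These medians lie near those over all genes, which were -0.01 to 0.00.

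**Figure D5:**
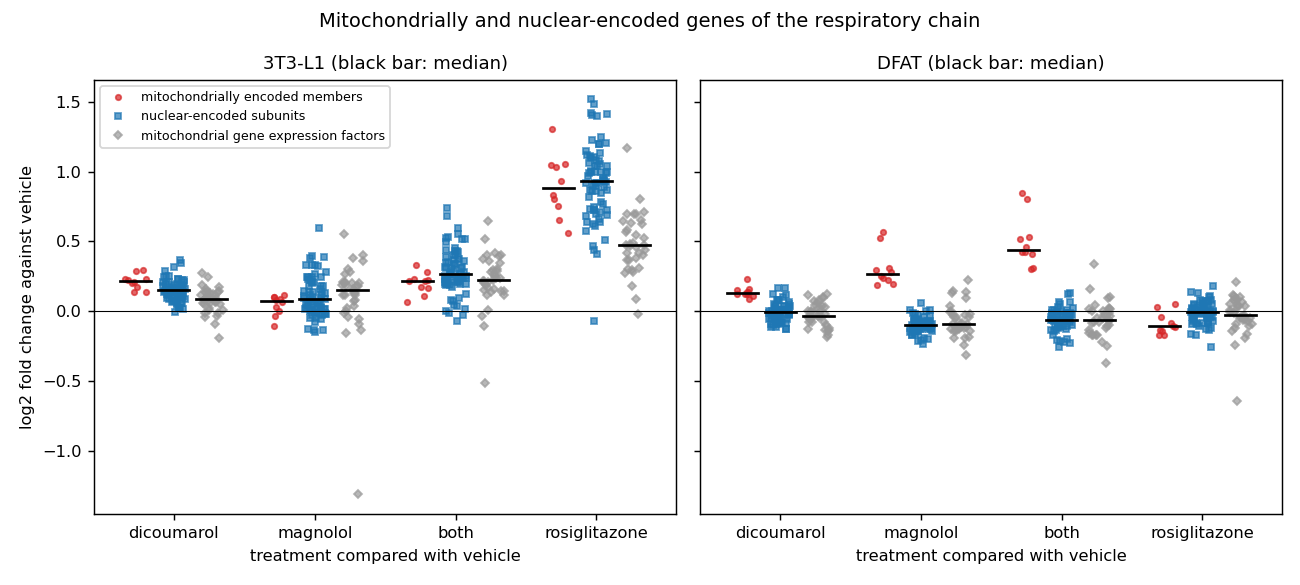
Log2 fold change against vehicle of the 10 mitochondrially encoded genes, the nuclear-encoded subunits of complexes I, III, IV and V and the genes for mitochondrial gene expression, by treatment, with medians as black bars. With rosiglitazone in 3T3-L1 the first 2 sets have medians of 0.88 and 0.93, and with dicoumarol plus magnolol in DFAT medians of 0.44 and -0.06.

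Markers of differentiation were measured in the same libraries. In 3T3-L1 the adipocyte markers were called higher for 0, 5, 8 and 8 of 8 with dicoumarol, magnolol, both and rosiglitazone (6, 8, 8 and 8 with the replicate block). Over all 15723 genes 0, 169, 607 and 3190 were called higher (72, 553, 1262 and 3832 with the block). The summed values of the adipocyte markers were 44205 to 62112 with vehicle and 321407 to 565835 with rosiglitazone. The fibroblast and preadipocyte markers fell for 5 of 5 with rosiglitazone, beside 3122 of all 15723 genes called lower. Their sums were 141061 to 163026 with vehicle and 80858 to 101791 with rosiglitazone. In DFAT the adipocyte markers were higher for 5, 7, 8 and 8 of 8, beside 135, 438, 906 and 860 of all 14819 genes. With both compounds in DFAT the sums of the adipocyte markers were 56913 to 64213, against 18489 to 21420 with vehicle. The sum of the fibroblast and preadipocyte markers, mostly COL1A1, went from 1061056 to 1187128 with vehicle up to 1808282 to 2096802 with both compounds, though 1 of the 3 tested was higher and 1 lower. The sum of the muscle markers, nearly all DES, went from 22.0 to 68.2 up to 124 to 155. The part of these shifts in the mitochondrial values was not tested. In bulk libraries a change in the number of cells of a type and a change in RNA per cell cannot be told apart.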

How the data were processed

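RNA from 15 3T3-L1 and 15 DFAT libraries was measured by RNA-seq. The authors deposited, per the labels, gene counts divided by DESeq2 size factors, a signal that is not whole counts. The submitters' processing notes name bcl2fastq 2.19.1.403, STAR, DESeq2 and the build GRCm38 for all libraries, pig included. Of 24055 nuclear mouse genes, 2.12% had the start of GENCODE M21, so no nuclear coordinates are printed. No value column lacked a sample (0 columns).

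The 10 genes and all lists were chosen with earlier results of these data known. Within each table limma 3.58.1 (R 4.3.3) was fitted to log2(value + 1) with a variance trend over 5 groups, for genes with a mean of at least 10, with Benjamini-Hochberg adjustment at 0.05 and 14 comparisons in all. The fit was tested on simulated data with errors drawn separately for each gene and library. Links between genes or between same-numbered libraries were not simulated. Full statistics are given for at most 3 called genes a comparison, otherwise for the largest and smallest change, and list genes are named among the 3 largest called. Between 2 replicates, chi-square per degree of freedom was at least 15.7 in 3T3-L1 and 8.02 in DFAT, so no pair agreed within sampling noise and none was merged, which does not show that they came from separate cultures.

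Same-numbered 3T3-L1 libraries deviated together from their group means (30 of 30 correlations over 0.1, lowest 0.106), so the numbers pair them. In DFAT this held for the combination against magnolol (lowest 0.118) and against rosiglitazone (lowest 0.105). The pairing comes from the data, since the labels give only numbers. The block was fitted over all 5 groups of a system, in DFAT also over groups that the numbers did not pair. Copies were searched with blastn. Alternatives covered the pseudocount, filter, scaling, groups fitted, variance trend, replicate block and each library left out.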

Additional observations from a re-analysis of the deposited data

How the results depend on the processing

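Of 870 alternative values of single genes, 748 kept their direction and their side of the threshold, 69 lost a call, 32 gained one and 21 changed sign. Changing the pseudocount to 5, and adding the nuclear copies (chosen after seeing the data), kept all of theirs. Counts of genes called that moved by over 1.5 times were as follows. For 3T3-L1 rosiglitazone against both compounds (6), quantile normalization gave 0, only these groups 1, the replicate block 10, and leaving out a library 2 to 10. For DFAT both compounds against vehicle (2), no filter gave 0, quantile normalization 0, only these groups 4, no variance trend 1, and leaving out a library 0 to 4. For DFAT rosiglitazone against both (4), no filter gave 1, quantile normalization 1, only these groups 0, the replicate block 10, and leaving out a library 0 to 7. For DFAT magnolol against vehicle (0), only these groups gave 1. The count for 3T3-L1 rosiglitazone against vehicle (10) stayed within 1.5 times, at 7 to 10 with a library left out. The other comparisons kept 0 calls in every setting run except the block. Except where fewer samples or genes set the change, the cause was not tested.

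DFAT numbers did not pair the libraries of 3 comparisons whose counts the replicate block moved: magnolol against vehicle went from 0 to 2, both compounds against vehicle from 2 to 5, and both against dicoumarol from 0 to 2. Calls over all 14819 genes rose as well in these comparisons, in the same order from 626 to 1360, from 1508 to 2643 and from 348 to 893. Apart from these and the 2 comparisons of rosiglitazone with both compounds above, the block changed no count of members. Of 30 correlations between same-numbered DFAT libraries 16 were over 0.1, and the lowest was -0.31.

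Quantile normalization, which fixes the top ranks, turned the sign of mt-Co3 with both compounds in 3T3-L1 (-0.031), of mt-Nd5 with both against magnolol in 3T3-L1 (-0.048), and in DFAT of COX1 with dicoumarol (-0.094), with both (-0.19) and for rosiglitazone against both (0.19), and of COX3 with both against dicoumarol (-0.075). With a library left out, 10 uncalled values turned, with these ranges: in 3T3-L1 with magnolol mt-Co1 (-0.019 to 0.22) and mt-Co3 (-0.22 to 0.00573), with both mt-Co3 (-0.045 to 0.18), with both against dicoumarol mt-Nd1 (-0.058 to 0.15) and mt-Co3 (-0.14 to 0.023), with both against magnolol mt-Nd5 (-0.029 to 0.15), and in DFAT with rosiglitazone ND6 (-0.12 to 0.22) and COX3 (-0.35 to 0.059), and COX3 with both against dicoumarol (-0.059 to 0.30) and against magnolol (-0.13 to 0.23).

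Total scaling moved the median of all genes in DFAT by over 0.1 with magnolol (to -0.14), both compounds (to -0.17), both against dicoumarol (to -0.12) and rosiglitazone against both (to 0.18). Higher calls went from 50.5% to 40.3% for 3T3-L1 rosiglitazone against vehicle, from 52.1% to 32.2% for 3T3-L1 rosiglitazone against both, from 46.9% to 28.4% for DFAT dicoumarol, from 70.0% to 12.2% for DFAT magnolol and from 85.3% to 48.6% for both against dicoumarol. Count tests were not run, because 81.6% to 91.0% of low values were whole reads within 0.02 of a read, up to 20 reads. No member fell below 39042 in any library, so the spread between 3 libraries a group, rather than depth, limits precision.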
